A study of Homo sapiens with 2 samples.

Results

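The genes described here encode respiratory complex I, the NADH dehydrogenase of the inner mitochondrial membrane: its nuclear-encoded subunits and the assembly factors that carry the NDUFAF name. They were taken by symbol, as every gene named NDUFA, NDUFB, NDUFC, NDUFS, NDUFV, NDUFAB or NDUFAF with a number, from the probes that the platform annotation pairs with exactly 1 symbol. Of 18417 genes measured, 41 were members: 6 core subunits, 28 accessory subunits and 7 assembly factors. NDUFC2 and NDUFS5 had only probes shared with other symbols, and NDUFAF8 is not analysed here. NDUFA4, once counted as a complex I subunit, is listed as COXFA4 and was not a member.

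RNA came from HepG2, a human hepatoma line, so 1 established tumour line stands for liver cells. 1 Affymetrix array held control cells, and 1 held cells given amorphous silica nanoparticles (SiO2-NP) at 100 mg/L in MEM medium for 24 h. The control's handling beyond growth in MEM is not described in the labels. All 8 hepatoma markers examined (ALB, AFP, APOA1, APOB, TTR, SERPINA1, FGB and TF) passed the level filter defined below, against 2 of 6 leukocyte markers (CD68 and LYZ), 1 of 6 fibroblast markers (COL1A1) and 0 of 5 endothelial markers. Each group had a single array, so replicate error is unknown and no test was run: every difference describes these arrays, and variation between cultures cannot be told apart from the treatment. RNA was taken from whole cultures, so fewer cells with a transcript and less of it per cell cannot be told apart either.

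Complex I takes electrons from NADH and passes them to ubiquinone while it pumps protons. Its peripheral arm reaches into the matrix and has an N module, which oxidises NADH, and a Q module, which reduces ubiquinone. Its membrane arm pumps protons and is built from modules named after the mitochondrially encoded subunits they hold: ND1 and ND2 near the arms' junction, ND4 and ND5 at the far end. Core subunits carry the cofactors and the chemistry, accessory subunits surround and stabilise them, and assembly factors help to build the enzyme and then leave it. In liver cells the enzyme also sets the NAD+ to NADH balance that fuel oxidation depends on.

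Values are log2 intensities as deposited, and a difference is SiO2-NP minus control. Fold changes are 2 to the power of that difference. A gene was past the level filter when its 2-array mean was at least 7.26, the median over genes. The filter is not a detection call. It kept 9209 genes and 36 of the 41 members: 6 of 6 core, 26 of 28 accessory and 4 of 7 assembly genes. NDUFB1 lay just under the filter (mean 7.18), and NDUFB6 was the dimmest member past it (7.52). The members under it were NDUFB1, NDUFS4, NDUFAF1, NDUFAF2 and NDUFAF6.

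Most complex I transcripts differed little between the arrays, with a modest excess of values under the control. Of the 36 members past the filter, 26 (72.2%) were below the control and 10 were above it, where 59.8% of all genes past the filter were below and 40.2% above. The median difference was -0.07 in the members and -0.03 in all genes past the filter. A difference of at least 1.2-fold (0.26 on the log2 scale) downward was seen in 4 members, or 11.1% of the 36, against a background of 7.53%, and upward in 0 members, against 2.99%. At 1.1-fold, 11 members (30.6%) were lower against 23.5% of all genes, and 1 was higher against 11.3%. These 1.1-fold counts depended on the scaling. With the running median or quantile normalization, NDUFB7, NDUFAB1, NDUFB4 and NDUFAF5 no longer lay 1.1-fold lower. With quantile normalization NDUFA12 (0.18), NDUFA7 (0.15) and NDUFB9 (0.14) joined NDUFA3 (0.26) among those higher. The share of all genes past 1.1-fold was not counted on those scales. At 1.5-fold, 1 member was lower against 0.25% and 0 were higher against 0.141%. The share of members at least 1.2-fold lower was thus near the background. The number below the control depended on the scaling: it was 23 of 36 (63.9%) once a running median over genes of like level was subtracted, where 4599 of 9209 genes were below, and 22 of 36 (61.1%) after quantile normalization, where 4278 were.

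**Figure D1:**
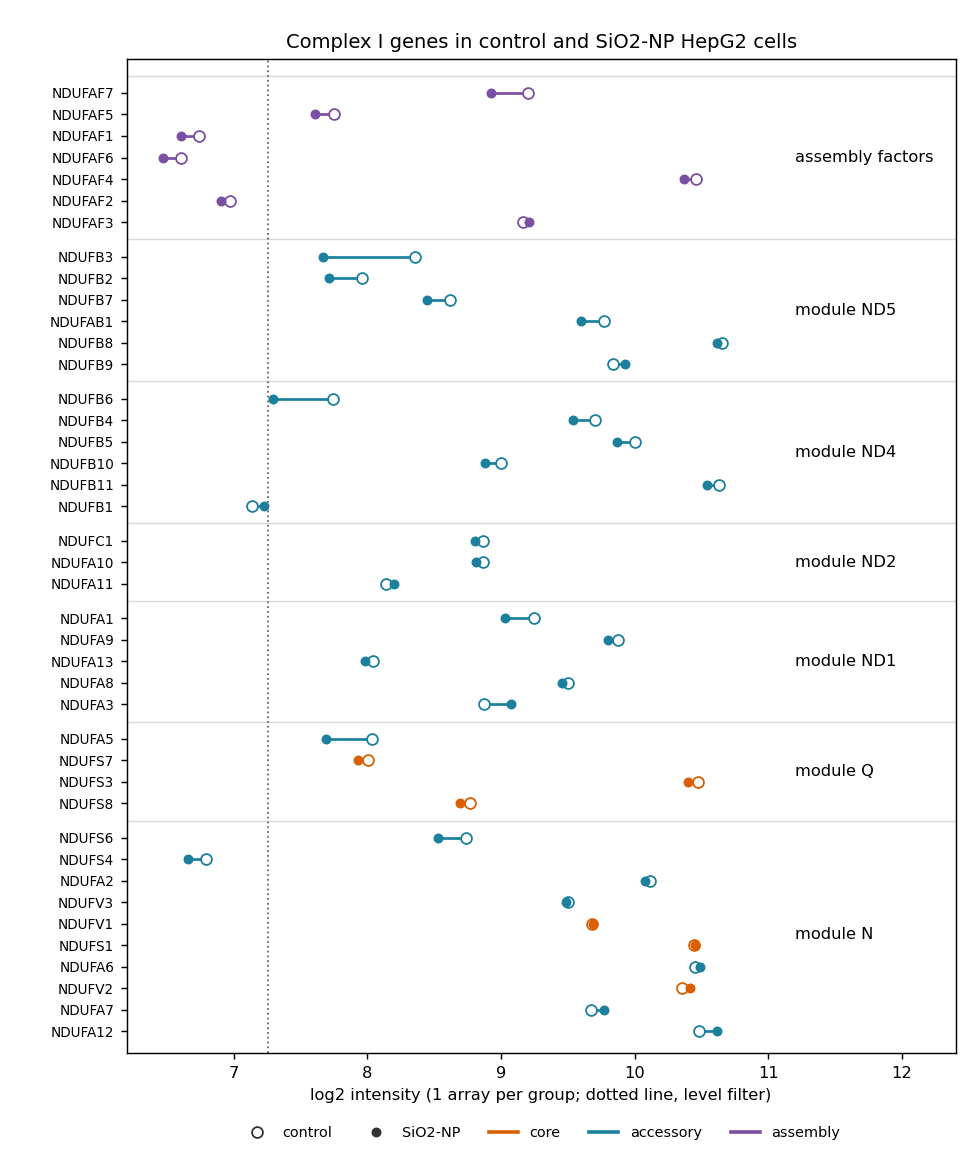
Log2 intensity (x axis) of each of the 41 complex I genes on the control array (open circles) and the SiO2-NP array (filled circles), grouped by module and coloured by role. The longest line is that of NDUFB3, from 8.36 to 7.66, and most other pairs of circles nearly touch. The dotted line is the level filter at 7.26.

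The core subunits were close to the control. In the N module, NDUFV1, which holds the flavin that accepts electrons from NADH, read 9.68 on both arrays, a difference of 0.00. NDUFV2, its iron-sulfur partner, read 10.36 in control and 10.41 in exposed cells (0.06). NDUFS1, the large iron-sulfur subunit, read 10.44 and 10.45 (0.01). These 3 genes of the NADH-oxidising end therefore lay at or slightly above the control. In the Q module, NDUFS7, which carries the last iron-sulfur cluster before ubiquinone, read 8.01 and 7.93 (-0.08). NDUFS3, a scaffold of the arm, read 10.47 and 10.40 (-0.07). NDUFS8, another iron-sulfur subunit, read 8.77 and 8.69 (-0.07). The 3 Q module values lay within 0.01 of each other and inside the range that holds the middle 50% of all genes past the filter, -0.13 to 0.06. The core median was -0.03, close to that of all genes past the filter, and its sign changed under other scalings (0.00 with the running median and 0.01 with quantile normalization).

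Accessory subunits had the wider spread, from -0.69 to 0.20, with a median of -0.07. Of the 26 past the filter, 20 (76.9%) were below the control, against 59.8% of all genes past it. With the running median 17 (65.4%) were below, against 49.9% of all genes, and the median was -0.04. With quantile normalization 16 (61.5%) were below, against 46.5%, and the median was -0.03. NDUFB3, a small subunit at the far end of the membrane arm, had the largest difference of any member: 8.36 in control and 7.66 in exposed cells, which is 1.62-fold lower. Of the 9209 genes past the filter, 12 had a lower value, so NDUFB3 ranked at position 13. Its difference was -0.66 with the running median subtracted and -0.65 with quantile normalization. RefSeq names 5 pseudogenes of NDUFB3, and whether its probe also reads these copies was not tested.

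NDUFB6, another membrane-arm subunit, read 7.74 in control and 7.30 in exposed cells, which is 1.36-fold lower. It ranked at position 127 of 9209, and RefSeq names 0 pseudogenes for it. NDUFA5, which sits on the Q module in the matrix arm, read 8.04 and 7.69, or 1.27-fold lower, at position 316. RefSeq names 12 pseudogenes of NDUFA5. NDUFB2, of the ND5 module, came just short of the threshold, with 7.96 and 7.71 (1.19-fold lower). These 4 subunits had mean levels between 7.52 and 8.01, in the dimmer part of the members past the filter.

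Smaller negative differences followed in NDUFA1, an X-linked subunit that anchors the matrix arm to the membrane (9.25 in control, 9.03 in exposed cells, -0.22), and in NDUFS6, which binds zinc in the N module (8.74 and 8.53, -0.21). NDUFAB1, the mitochondrial acyl carrier protein, which also serves fatty acid and iron-sulfur synthesis in the matrix, read 9.77 and 9.60 (-0.17). Its partners in the complex are the LYR proteins NDUFA6 and NDUFB9, and these lay on the other side of the control, at 0.04 and 0.09. The largest positive difference was that of NDUFA3, a small ND1 module subunit, with 8.87 in control and 9.08 in exposed cells, or 1.15-fold higher. On the values as deposited it was the only member past the filter at least 1.1-fold higher, and 94.5% of all genes past the filter lay below it. RefSeq names 6 pseudogenes of NDUFA3.

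By module, the medians were lowest in ND4 and ND5, at the far end of the membrane arm, an order that a stricter level filter ended for ND5. Counts below the control in these small sets stand beside the 59.8% of all genes past the filter that lay below it. In the N module, 3 of 9 genes past the filter were below the control and the median was 0.01, from NDUFS6 at -0.21 to NDUFA12 at 0.13. NDUFA7 lay at 0.10, NDUFA2 at -0.04 and NDUFV3 at -0.01. In the Q module all 4 genes were below it, with a median of -0.08. The ND1 module had a median of -0.06 with 4 of 5 below, among them NDUFA9 (-0.08), NDUFA13, also known as GRIM-19 (-0.06), and NDUFA8 (-0.05). The ND2 module had a median of -0.05 over 3 genes, from NDUFC1 (8.86 in control and 8.81 in exposed cells, -0.05) to NDUFA11 (8.14 and 8.20, 0.06), with NDUFA10 at -0.05.

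The ND4 module had a median of -0.14, and all 5 of its genes past the filter were below the control, where 59.8% of all genes were. After NDUFB6 these were NDUFB4 (-0.17), NDUFB5 (-0.14), NDUFB10 (-0.12) and NDUFB11 (10.63 in control and 10.54 in exposed cells, -0.09). NDUFB1, the sixth measured gene of the module and just under the filter, read 7.14 in control and 7.23 in exposed cells (0.09). The ND5 module had a median of -0.17 with 5 of 6 below, where NDUFB7 lay at -0.18, NDUFB8 at -0.03 and NDUFB9 at 0.09 (9.84 and 9.93). With a stricter filter at the 75th percentile of gene means, which drops its dimmer genes, the ND5 median was -0.035, above those of Q (-0.07), ND1 (-0.06) and ND2 (-0.05). The modules hold 3 to 9 genes past the filter, no test of the order was possible, and the signs of NDUFA2, NDUFA8 and NDUFV3 changed with the running median and with quantile normalization, that of NDUFB8 under quantile normalization, and that of NDUFV1 after centring on the median of all genes. The median of the ND4 module was -0.10 with the running median and -0.09 with quantile normalization; that of the ND5 module was -0.13 and -0.12, and that of the N module 0.04 and 0.05.

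**Figure D2:**
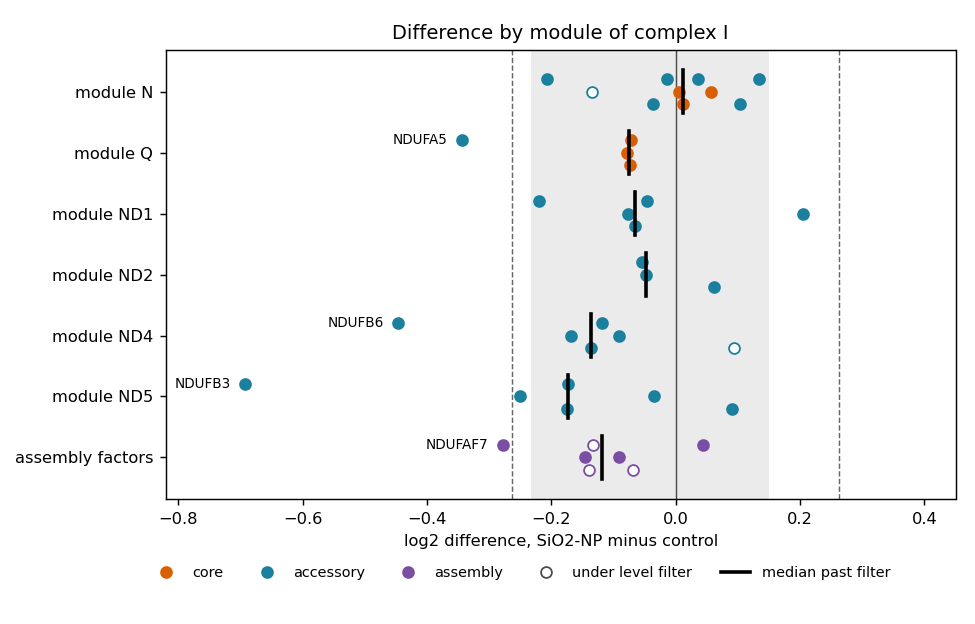
Log2 difference (SiO2-NP minus control, x axis) of each complex I gene by module. Open circles are genes under the level filter, black bars are medians of the genes past it (from 0.01 in module N to -0.17 in module ND5), the grey band holds the middle 80% of all genes past the filter (-0.23 to 0.15) and dashed lines mark 1.2-fold; NDUFB3, NDUFB6, NDUFA5 and NDUFAF7 lie beyond the lower one.

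The assembly factors were below the control in 6 of 7 measured genes, where 47.6% of all 18417 genes were, and in 3 of the 4 past the filter, whose median was -0.12. NDUFAF7, an arginine methyltransferase of the assembly pathway, read 9.20 in control and 8.92 in exposed cells, or 1.21-fold lower. With the running median or quantile normalization it differed by -0.23, short of 1.2-fold, so that 3 members and not 4 were past it. NDUFAF5, which hydroxylates an arginine of NDUFS7, read 7.75 and 7.61 (-0.15). NDUFAF4, an early factor of the Q module, read 10.46 and 10.37 (-0.09), and its binding partner NDUFAF3 read 9.17 and 9.21 (0.04). This pair therefore lay on either side of the control, each close to it. Under the filter, NDUFAF1, a part of the MCIA complex that builds the ND2 module, read 6.74 and 6.60 (-0.14), and NDUFAF6 read 6.61 and 6.47 (-0.13). NDUFAF2, a paralogue of NDUFA12 that holds its place during assembly, read 6.97 and 6.90 (-0.07), while NDUFA12 read 10.48 and 10.61.

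A further 11 complex I assembly factors have other names. All 11 passed the filter, 9 (81.8%) were below the control, against 59.8% of all genes past it, and their median was -0.08. With the running median 8 (72.7%) were below, against 49.9% of all genes. With quantile normalization 6 (54.5%) were, against 46.5%. FOXRED1, a flavin-dependent assembly factor, was the only one past 1.2-fold, with 9.60 in control and 9.28 in exposed cells (1.25-fold lower). TIMMDC1 lay at -0.12. Of the MCIA partners of NDUFAF1, COA1 lay at -0.16, TMEM186 at -0.12, ACAD9 at -0.04, ECSIT at -0.03 and TMEM126B at 0.01.

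**Figure D3:**
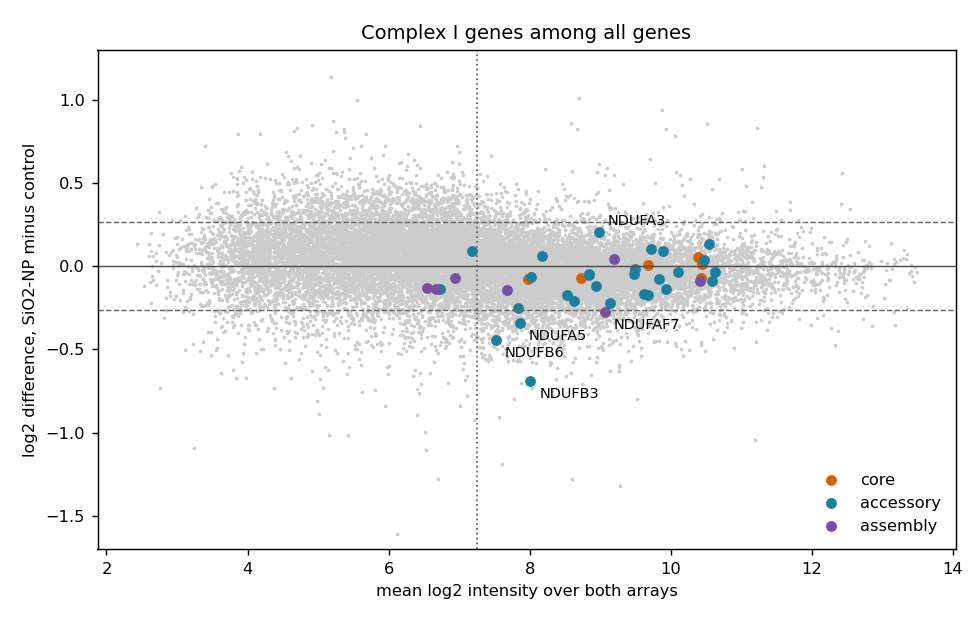
Log2 difference (SiO2-NP minus control, y axis) against mean log2 intensity over both arrays (x axis) for all 18417 genes (grey) and the 41 complex I genes (coloured by role). The dotted line is the level filter and dashed lines mark 1.2-fold; NDUFB3, NDUFB6 and NDUFA5 lie lowest among the members, at mean levels of 8.01, 7.52 and 7.86.

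Within the members the difference went with the level. Over the 36 genes past the filter, Pearson's r between mean level and difference was 0.52 and Spearman's rho 0.50, against -0.02 and -0.05 over all 9209 genes. All points come from the same pair of arrays, so this is a description of them. Without NDUFB3 and NDUFB6 the values were 0.41 and 0.42. The 8 members with a mean below 8.5 had a median of -0.20, where 3884 genes in that band had -0.02. The 12 members between 8.5 and 9.5 had -0.06 (all genes, -0.04), and the 16 brighter ones had -0.04 (all genes, -0.03). In the dimmest band 3 of the 8 members were at least 1.2-fold lower, against 9.27% of all genes there. The bands were set after the values were seen.

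Promoter sequences are shown for the 3 subunits at least 1.2-fold lower, NDUFB3, NDUFB6 and NDUFA5, beside NDUFA6 and NDUFS7, the members that hold both the NRF1 and the YY1 letters described below. Each is the 250 bases before the gene's first listed RefSeq start (GRCh38.p14), read 5′ to 3′ on the gene's strand: chr2:201071751-201072000 on the plus strand, chr9:32573160-32573409 on the minus strand, chr7:123601652-123601901 on the minus strand, chr22:42090773-42091022 on the minus strand and chr19:1383657-1383906 on the plus strand. Capitals mark the letters searched for on either strand, which are NRF1 or SP1 letters in these runs.
NDUFB3: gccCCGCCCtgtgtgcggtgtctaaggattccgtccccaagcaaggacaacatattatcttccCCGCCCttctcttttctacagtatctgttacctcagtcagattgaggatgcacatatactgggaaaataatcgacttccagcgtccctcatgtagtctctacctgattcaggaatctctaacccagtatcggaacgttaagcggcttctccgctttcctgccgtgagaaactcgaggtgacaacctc
NDUFB6: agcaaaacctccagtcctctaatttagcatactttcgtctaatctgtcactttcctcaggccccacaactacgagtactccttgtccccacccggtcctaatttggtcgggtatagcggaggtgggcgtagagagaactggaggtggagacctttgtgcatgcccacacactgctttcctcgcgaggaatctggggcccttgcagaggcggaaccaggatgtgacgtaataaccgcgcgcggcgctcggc
NDUFA5: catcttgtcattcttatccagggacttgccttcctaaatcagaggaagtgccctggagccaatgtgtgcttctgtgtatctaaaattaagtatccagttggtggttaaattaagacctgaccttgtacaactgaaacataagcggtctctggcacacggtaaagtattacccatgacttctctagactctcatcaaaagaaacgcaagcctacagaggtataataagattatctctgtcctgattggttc
NDUFA6: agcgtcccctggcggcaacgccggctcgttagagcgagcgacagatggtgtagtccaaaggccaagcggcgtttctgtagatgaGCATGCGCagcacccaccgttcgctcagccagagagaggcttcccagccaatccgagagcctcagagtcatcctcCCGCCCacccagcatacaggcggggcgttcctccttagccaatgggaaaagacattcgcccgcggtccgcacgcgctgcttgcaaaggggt
NDUFS7: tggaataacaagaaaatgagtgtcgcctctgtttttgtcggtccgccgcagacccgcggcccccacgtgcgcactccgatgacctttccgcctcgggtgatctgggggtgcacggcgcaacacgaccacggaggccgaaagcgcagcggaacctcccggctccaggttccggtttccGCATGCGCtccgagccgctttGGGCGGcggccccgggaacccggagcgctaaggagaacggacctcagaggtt

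The search used windows of 300 bases, 250 before and 50 after the start, and found one for 38 of the 41 members. Letters were searched on both strands. GCATGCGC, a stretch of the site of nuclear respiratory factor NRF1, which drives many respiratory chain genes, was in 7 of 38 members (18.4%) and in 4.26% of 15842 protein-coding genes. AAGATGGC, for the factor YY1, was in 6 (15.8%) against 3.91%. CCGGAAG, for GABPA and other ETS factors, was in 6 (15.8%) against 14.2%, and GGGCGG, for SP1, in 22 (57.9%) against 58.5%. TCAAGGTCA, for ERR-alpha, was in 0 of 38 against 0.240%. The NRF1 and YY1 letters were thus more frequent in complex I promoters than in all, and the SP1 and ETS letters about as frequent.

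The differences on the arrays did not separate clearly by these letters. Among members past the filter, the 7 with the NRF1 letters had a median of -0.09 and the 27 without them -0.06. The 5 with the YY1 letters had 0.04 and the 29 without them -0.07. Of the 4 members at least 1.2-fold lower, 0 held the NRF1, YY1 or ETS letters and 1, NDUFB3, held those of SP1, capitalised above. The promoter of NDUFAF7, 1 of these 4, was searched but is not printed, nor are the 50 bases after each start. In NDUFA6 and NDUFS7 the YY1 letters lie after the start, outside the printed stretch. Absence of a match says only that these letters are not in this window.

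Regulators of mitochondrial gene expression were lower on the SiO2-NP array in 7 of 10 genes past the filter, near the 59.8% of all genes, with a median of -0.18 against -0.03, which was -0.14 both with the running median subtracted and with quantile normalization. TFAM, which packages and transcribes mitochondrial DNA, read 9.43 in control and 9.04 in exposed cells (1.31-fold lower). Among the regulators past the filter it was the only one past 1.2-fold. GABPA lay at -0.24, TFB2M at -0.22, TFB1M at -0.21 and NRF1 itself at -0.19. PPARGC1A, the PGC-1 coactivator best known in liver, lay at 0.02, YY1 at 0.04 and the mitochondrial RNA polymerase POLRMT at 0.11. PPARGC1B, under the filter, read 6.75 and 7.06 (0.31), or 1.24-fold higher. Their part in the values of the complex I genes was not tested.

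Beside the other respiratory complexes, complex I was neither the lowest nor the highest. Its subunits past the filter had a median of -0.07, with 23 of 32 (71.9%) below the control, where 59.8% of all genes past the filter were. Complex II had 0.01 with 2 of 5 below, but its list, unlike the others, mixes subunits (SDHC at -0.20, SDHD at -0.01 and SDHA at 0.01) with assembly factors (SDHAF2 at 0.02 and SDHAF3 at 0.07). Complex III had -0.11 with 5 of 6 below, among them UQCRQ (-0.23) and CYC1 (-0.16). Complex IV had -0.00 with 5 of 10 below, and complex V -0.04 with 8 of 12; these lists do not hold every subunit. The signs of complexes II, IV and V changed with the scaling. Complex IV was split. COX7B (8.59 in control, 8.15 in exposed cells), COX7C (9.75 and 9.41) and COX6C (9.21 and 8.91) were 1.35-fold, 1.27-fold and 1.24-fold lower. COX7A2 lay at -0.20 and COX6B1 at -0.05. Above the control, COX4I1 and COX6A1 lay at 0.05, and COX5B, COX8A and COX5A between 0.06 and 0.08. In complex V, ATP5MF read 10.70 and 10.42 (1.21-fold lower), and ATP5MC3, under the filter, 7.36 and 7.09 (-0.27). The 4 complex V genes past the filter and above the control were ATP5MC2 (0.16), ATP5ME (0.14), ATP5F1D (0.10) and ATP5PF (0.07). ATP5MJ and ATP5MK, which the list leaves out and which were looked up after the other values were seen, lay at -0.29 and -0.13. The 71 mitochondrial ribosomal protein genes past the filter had a median of -0.12, with 63 below (88.7%, against 59.8% of all genes) and 9 at least 1.2-fold lower (12.7%, against 7.53%). No test of a difference between complex I and any of these groups was possible.

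**Figure D4:**
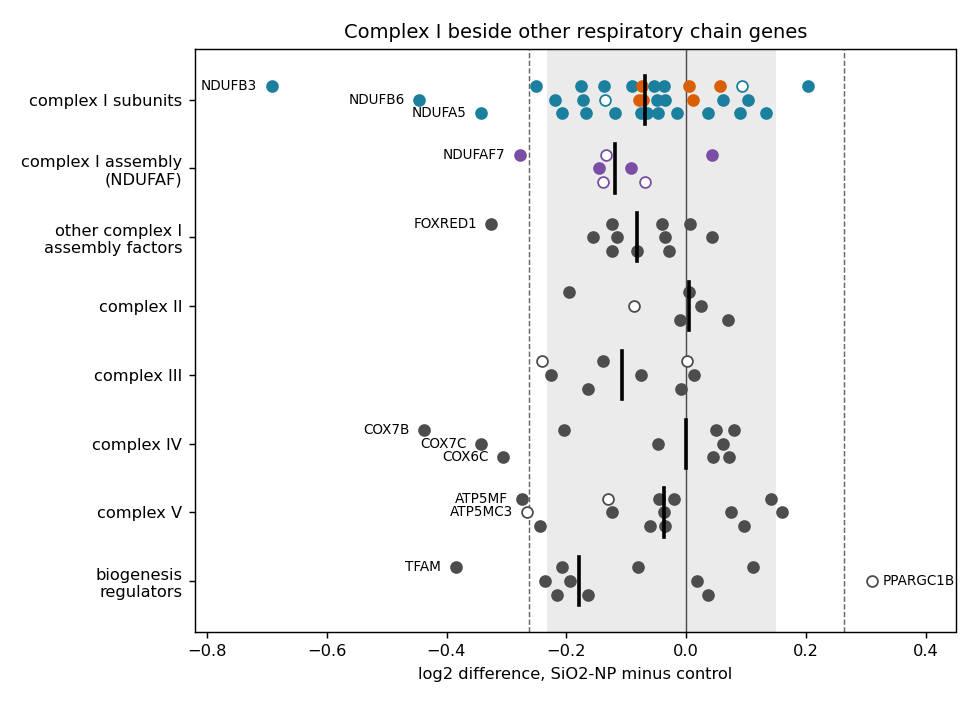
Log2 difference (SiO2-NP minus control, x axis) of complex I genes (coloured by role as core, orange; accessory, blue; assembly, purple) beside other assembly factors, complexes II to V and regulators of mitochondrial biogenesis (dark grey). Open circles are genes under the level filter, bars are medians of genes past it, the grey band is the middle 80% of all genes past it and dashed lines mark 1.2-fold; the medians run from -0.18 in the regulators to 0.01 in complex II.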

How the data were processed

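Values were deposited as 1 log2 intensity per probe and array (33297 probes). Values between 2.08 and 14.4 show the log2 scale. Per the submitters' processing notes RMA and MAS5 were used; which made these values is not given in the sources used here. Array medians were 6.65 (control) and 6.69 (SiO2-NP). Precision is limited by the number of arrays; read depth does not apply. Probes with exactly 1 symbol (19460) were averaged per gene, 1754 with several were left out, and 12083 had none in the annotation; 19429 matched a RefSeq gene identifier, which changed 0 symbols. Differences were counted at 1.2-fold beside all genes past the same filter, with no test. Every measured member could be named; full values were given for members past 1.2-fold, core subunits, assembly factors and module extremes; of each related list, those past 1.2-fold or otherwise the 2 largest differences were named, except that mitochondrial ribosomal proteins are given by counts only. The members, lists, modules and motifs were chosen with earlier results of these data known, and the mitochondrially encoded ND genes are not analysed here. Promoters came from RefSeq (GRCh38.p14). No probe coordinates are given, since no build is named. Protein features, though planned, were not analysed here. The steps were tested on simulated data. Alternatives covered the filter, scaling, probe rule and fold; pseudocounts were not needed on log2 values. Software was pandas 2.3.3 and NumPy 2.4.6 under Python 3.11.15, with matplotlib 3.10.9 for plots.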

Additional observations from a re-analysis of the deposited data

How the results depend on the processing

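The complex I median stayed below 0 under every alternative run for it (filter, scaling, probe rule, shared probes, list mean, and without NDUFB3). No replicate spread exists, so a median counted as moved at 0.05 and a single gene at 0.16, the SD over genes past the filter. Single genes moved by at most 0.08 (NDUFS4, running median) under the alternatives run for all 41. The members at least 1.2-fold lower, 4 as reported, were 1 at 1.5-fold and 11 at 1.1-fold. They were 1 with the filter at the 75th percentile, and 3 (without NDUFAF7) with the running median or quantile normalization. With the 75th-percentile filter 16 members were below the control, in place of 26 of the 36 past the main filter. That filter keeps fewer members, so its counts do not compare directly with those of the main filter. The share of all genes below the control was not counted under it. Members higher were 1 at 1.1-fold and 1 with the running median, in place of 0. The core median turned to 0.0081 with the 75th-percentile filter, 0.0049 with the running median and 0.012 with quantile normalization. The ND5 module median was -0.035 with the 75th-percentile filter and -0.12 with quantile normalization. Quantile normalization also gave -0.022 for the other assembly factors, -0.050 for complex III, 0.046 for complex IV and 0.010 for complex V. Complex IV was 0.035 with the running median, and complex II was -0.0020 without the filter and -0.0041 centred on the median of all genes. The stricter filter leaves fewer genes and a lower fold counts more; for the remaining moves the cause was not tested. No paired analysis was possible because there was 1 array of each kind, and leaving out a replicate was equally impossible.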

Other observations

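The probe shared by NDUFC2 and the read-through NDUFC2-KCTD14 read 11.87 in control and 11.75 in exposed cells (-0.12), and the probe shared by NDUFS5 and other symbols read 12.17 and 12.14 (-0.03). COXFA4, formerly NDUFA4, read 7.81 and 7.78 (-0.02).

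4 members had several probes. The NDUFB4 probes held identical values (9.70 and 9.54), and those of NDUFV2 gave differences of 0.04 and 0.08. For NDUFS4 one probe read 8.88 in control (difference -0.10) and the other 4.70 (-0.17), so its place under the level filter comes from averaging them. For NDUFAF2 the probes read 7.60 (-0.12) and 6.34 (-0.02), and its place under the filter comes from the average too.

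Of the 36 members past the filter, 17 have at least 1 named pseudogene in RefSeq, with a median of -0.09, and 19 have none, with a median of -0.05. Of the 4 members at least 1.2-fold lower, 2 (NDUFB3 and NDUFA5) have named pseudogenes and 2 (NDUFB6 and NDUFAF7) have none. Whether the probes read these copies was not tested.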
